A study of Mus musculus with 3 samples.

Results

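The genes described here are 52 transcription factor genes that pattern connective tissue in the embryo: homeobox genes outside the Hox clusters, T-box genes, basic helix-loop-helix genes of the Twist, Hand, Tcf15 and Tcf21 type, and the zinc finger genes of the Snail, Zeb, Osr, Gli and Zfhx families. They were chosen by family and by their known role in mesenchyme or in epithelial-mesenchymal transition (EMT), the loss of epithelial contacts by a cell that becomes migratory. All 52 had at least 4 probesets on the array and so belonged to the 18865 genes tested, and together they had 726 probesets. The samples were 3 Affymetrix arrays of RNA from GFP-positive cells, sorted fresh from the bone marrow of C57BL/6 mice that express GFP under the nestin promoter. They form 1 group, numbered 1 to 3 by the sample titles, and there is no control group. The labels give no age and no treatment. Nothing in them says that the samples were separate mice or separate sorts, so p-values cover only the spread of these samples, and that spread may be technical. The transgene marks any marrow cell in which the nestin promoter of the transgene is active, and no other sorting marker is named.

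Homeobox and T-box proteins bind DNA through a homeodomain or a T-box domain, and in the embryo their combinations set the position and fate of limb, facial, cardiac and axial mesenchyme. Adult skeletal and marrow stroma keeps part of this code, and Prrx1 and Gli1 are in use as markers of stromal progenitors. The EMT factors Snai1, Snai2, Zeb1 and Zeb2 are zinc finger repressors that bind E-box sequences in epithelial genes such as Cdh1 (E-cadherin), and Twist proteins are basic helix-loop-helix factors that act on the same programme.

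Snai2, Zeb2, Prrx1, Zfhx4, Meis3, Pbx2 and Zeb1 lay above the stricter of the backgrounds used, and the other 45 of the 52 genes did not pass it. For lack of a second group, genes were set against the signal of 355 olfactory, vomeronasal and taste receptor genes, which marrow cells should lack. The 95th percentile of these genes was 5.40, 5.66 and 5.64 on arrays 1, 2 and 3 on the log2 scale. A gene's margin is its level minus this threshold, averaged over the arrays. By limma (one-sided, p adjusted by Benjamini-Hochberg over 18865 genes) 36 of the 52 genes (69.2%) were called above it at an adjusted p below 0.05, beside 50.6% of all genes tested, and 38 lay above the threshold on each array, beside 55% of all genes. The median margin of the 52 was 0.81, beside 0.50 over all genes. A stricter background was the 95th percentile of 30 genes of other tissues, namely hepatocytes, photoreceptors and spermatids (7.25, 7.08 and 6.75 on the arrays). It rests on the highest few of these 30, of which 3 were themselves called above the chemosensory threshold. Both thresholds were taken as fixed in the fit. Against the stricter one, 7 of the 52 (13.5%) were called, beside 16.6% of all genes, and 8 lay above it on each array, beside 20.1%. The share of the 52 that was called lay above that of all genes for the first background and below it for the second, and neither difference was tested. In bulk RNA, fewer cells with a transcript and less RNA per cell cannot be told apart.

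The labels call the cells GFP-positive marrow cells and name no cell type, so markers of several types were examined. Nes, whose promoter drives GFP, lay at the threshold (margin 0.01). All 12 stromal markers, among them Cxcl12 (11.75 ± 0.14, SD, n = 3), Adipoq (11.60 ± 0.12) and Lepr (11.38 ± 0.12), were called above both backgrounds. Beside 50.6% of all genes, endothelial markers were called in 13 of 16 cases (81.2%), neutrophil markers in 6 of 8 (75%), smooth muscle markers in 7 of 10 (70%), Schwann cell markers in 3 of 6 (50%) and pan-leukocyte markers in 3 of 12 (25%). The stricter background was passed by 3 neutrophil (37.5%), 4 endothelial (25%), 2 smooth muscle (20%), 1 pan-leukocyte (8.33%) and 0 Schwann cell markers. Of all genes 16.6% passed it. All 16 endothelial markers were lowest on array 2. Across all genes Pearson's r between arrays was 0.93 to 0.95, a value over genes, which are not independent replicates. Probes differ in affinity, so a margin says where a gene stands against background. The largest and smallest margins of a list served only to pick examples and give no order of abundance.

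**Figure D1:**
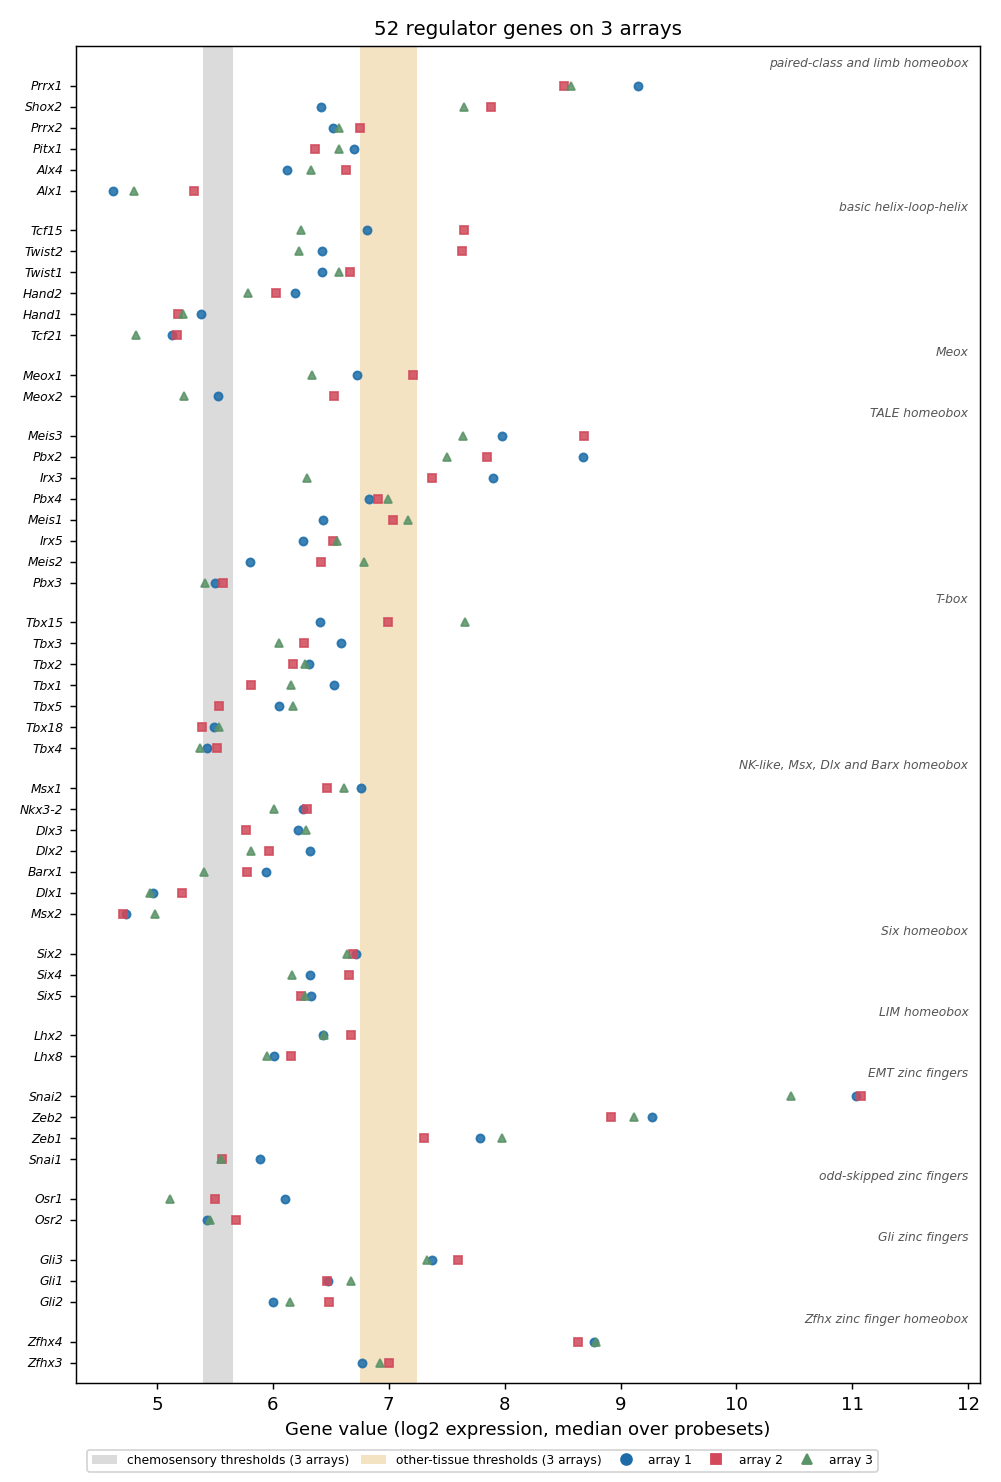
Log2 expression (x axis) of the 52 genes, grouped by role, with 1 point for each of the 3 arrays and bands for the range of the chemosensory and other-tissue thresholds over the arrays. Snai2 lies far to the right of both bands on every array, while many other genes have points between or within the bands.

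Among the EMT zinc fingers, Snai2, Zeb1 and Zeb2 were above both backgrounds and Snai1 was above neither. Snai2 (Slug), a repressor needed for neural crest and mesenchymal migration, had 11.03, 11.08 and 10.47 on arrays 1, 2 and 3. Every array lay more than the whole spread of the gene above the stricter threshold. Its margin was 5.29 (SE 0.21, limma adjusted p = 3.42e-07), and 5 of its 5 probesets lay above the background of single probesets on all arrays. Snai1, its close relative and the factor best known for repressing E-cadherin, had 5.89, 5.57 and 5.55. It stood above the chemosensory threshold on array 1 only, with a margin of 0.10 (adjusted p = 0.507) and 0 of 5 probesets above background. This missing call does not show that Snai1 was absent. Probes of the pair differ, so only their standing against background can be set side by side.

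The Zeb genes encode large repressors with zinc finger clusters at both ends and a homeodomain-like stretch between them. Zeb2 had 9.27, 8.92 and 9.12, a mean of 9.10 ± 0.18 (SD, n = 3) and a margin of 3.54 (SE 0.20, adjusted p = 1.18e-06). All arrays lay above the stricter threshold, and 28 of 39 probesets lay above background. Zeb1 had 7.79, 7.31 and 7.98, with a margin of 2.13 (SE 0.21, adjusted p = 2.62e-05). Its call above the stricter background was close to the limit (margin 0.67, adjusted p = 0.0432). It was lost without array 1 (adjusted p = 0.0759) and without array 3 (adjusted p = 0.391), and also with symbols not updated. Both Zeb genes were lowest on array 2, where 22 of 39 Zeb2 probesets and 11 of 19 Zeb1 probesets had their lowest value. Endothelial markers were lowest on the same array, with a median deviation of 0.29, -1.03 and 0.76 from the gene means on arrays 1, 2 and 3, and their part in the Zeb levels was not tested.

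**Figure D2:**
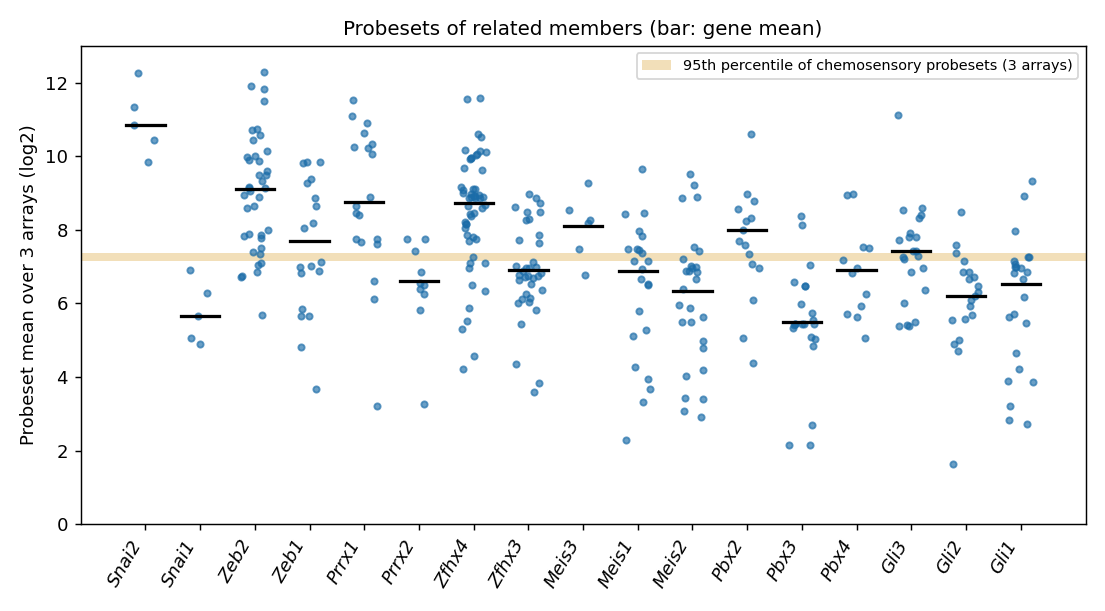
Mean log2 level over the 3 arrays of each probeset (points) of 17 genes from the Snail, Zeb, Prrx, Zfhx, Meis, Pbx and Gli families, with a bar at the gene's level and a band for the range of the single-probeset thresholds (7.16 to 7.38). All 5 Snai2 probesets lie above the band and all 5 of Snai1 lie below it, while genes with many probesets spread across it.

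Of the paired-class and limb homeobox genes 5 of 6 (83.3%) were called, beside 50.6% of all genes. Only Prrx1 passed the stricter background (16.7%, beside 16.6% of all genes). Prrx1, which is expressed in limb bud and facial mesenchyme and in adult skeletal progenitors, had 9.15, 8.51 and 8.58. All arrays stood well above both thresholds, and the margin was 3.18 (SE 0.23, adjusted p = 3.96e-06), with 14 of 19 probesets above background. Its paralogue Prrx2 had 6.52, 6.75 and 6.57, a margin of 1.05 (adjusted p = 0.000616) and 1 of 10 probesets above background. Prrx2 was thus called above the chemosensory genes and below the other-tissue threshold on every array. Shox2, needed for the proximal limb bones and the sinoatrial node, had 6.41, 7.89 and 7.65. Array 1 lay more than 1 unit below the others, and without it Shox2 also passed the stricter background (adjusted p = 0.0215). The hindlimb determinant Pitx1 had 6.70, 6.36 and 6.57, with a margin of 0.98 (adjusted p = 0.00154) although 0 of its 6 probesets lay above background. Alx4, a homeobox gene of skull and limb development, had 6.13, 6.63 and 6.33 (margin 0.80, adjusted p = 0.00311). The related facial gene Alx1, with 4.62, 5.32 and 4.80, lay below the threshold on all arrays.

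Basic helix-loop-helix genes were called in 3 of 6 cases (50%), beside 50.6% of all genes. None passed the stricter test, beside 16.6% of all genes (0 by limma, 0 with p below 0.05 before adjustment, 0 on all arrays). Twist1, which holds cranial and osteoblast precursors in an immature state, had 6.43, 6.67 and 6.57. The arrays differed little, with a margin of 0.99 (adjusted p = 0.000803). Its relative Twist2, a dermal and skeletal regulator, had 6.43, 7.64 and 6.22, and Tcf15 (paraxis), a somite gene, had 6.81, 7.65 and 6.24. Both stood highest on array 2 by more than 0.8 and had margins of 1.20 (adjusted p = 0.00288) and 1.34 (adjusted p = 0.00148). Averaging probesets put Tcf15 above the stricter background (margin 0.60, adjusted p = 0.0077). Hand2, a regulator of heart and limb, had 6.19, 6.03 and 5.78, above the threshold on each array, but its margin of 0.44 missed the test (adjusted p = 0.0597). When probesets were averaged, with no median taken, Hand2 was called. Hand1 (5.26 ± 0.11, SD, n = 3) and Tcf21 (5.04 ± 0.19), a gene of epicardial and visceral mesenchyme, had levels below the threshold on every array. The partners of these proteins were all called, 7 of 7 (50.6% of all genes): Tcf12 (8.55 ± 0.17) is an E protein that pairs with Twist and Hand proteins, and Id3 (9.42, 9.02 and 8.55 on the arrays) and Id4 (8.97 ± 0.26) are inhibitors of E proteins. Id1 had the smallest margin of that list, 0.68 (adjusted p = 0.0411).

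The somite homeobox genes Meox1 and Meox2 shared an array pattern but not a call. Meox1 had 6.73, 7.21 and 6.33 (margin 1.19, adjusted p = 0.000904), and Meox2 had 5.53, 6.53 and 5.23 (margin 0.20, adjusted p = 0.389). Each was highest on array 2 and lowest on array 3, and array 2 was the highest in 6 of 8 Meox1 probesets and 5 of 6 Meox2 probesets. Meox2 exceeded the threshold on arrays 1 and 2 only.

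Of the TALE homeobox proteins, those of the Meis and Pbx genes bind DNA together with Hox proteins or with each other. TALE homeobox genes, with Irx3 and Irx5 counted, were called in 7 of 8 cases (87.5%), beside 50.6% of all genes. Meis3 and Pbx2 were called above the stricter background (25%, beside 16.6% of all genes). Meis3 had 7.97, 8.68 and 7.64, with a margin of 2.53 (SE 0.23, adjusted p = 1.5e-05) and 5 of 6 probesets above background. Array 2 was the highest in 5 of the 6 probesets, and the stricter call was lost without that array (adjusted p = 0.0652). Pbx2, a broadly expressed partner of Hox and Meis proteins, had 8.68, 7.85 and 7.50, with a margin of 2.44 (SE 0.28, adjusted p = 5.41e-05). Array 1 stood highest by more than 0.8, and 9 of 15 probesets lay above background. Meis1, a stem cell and leukaemia factor in haematopoietic cells, had 6.43, 7.03 and 7.17 (adjusted p = 0.000242), and Meis2 had 5.80, 6.42 and 6.79 (adjusted p = 0.00697). Both were lowest on array 1, and Meis2 lost its call without array 3 (adjusted p = 0.0598). Pbx4 had 6.91 ± 0.08 (SD, n = 3, adjusted p = 0.000141), whereas Pbx3 had 5.50 ± 0.08, a level at the threshold (margin -0.07, adjusted p = 0.977).

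The Iroquois genes Irx3 and Irx5, neighbouring TALE genes that pattern limb, heart and fat, were both called above the chemosensory background. Irx3 had 7.90, 7.38 and 6.29, a range of 1.60 that was the widest of the 52 genes. Array 3 was far below the others, and the margin was 1.62 (SE 0.32, adjusted p = 0.00135). Irx5 had 6.26, 6.52 and 6.55, which is within 0.29 (margin 0.88, adjusted p = 0.00155), and its order over the arrays was not that of Irx3.

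T-box genes were called in 4 of 7 cases (57.1%), beside 50.6% of all genes. None passed the stricter background, beside 16.6% of all genes (0 by limma, 0 with p below 0.05 before adjustment, 0 on all arrays). Tbx15, which acts in skeletal condensations and fat, had 6.41, 6.99 and 7.66. It was highest on array 3 and had a margin of 1.45 (SE 0.23, adjusted p = 0.000407), with 4 of 21 probesets above background. The repressor pair Tbx2 (6.26 ± 0.07, SD, n = 3, adjusted p = 0.00702) and Tbx3 (6.30 ± 0.27, adjusted p = 0.00935) was called with margins of 0.69 and 0.74. Tbx1, a pharyngeal arch gene, had 6.53, 5.81 and 6.15 (adjusted p = 0.0305) and lost the call without array 1 (adjusted p = 0.146) or array 3 (adjusted p = 0.0589). Of the limb-identity pair, Tbx5 (forelimb and heart) had 6.05, 5.54 and 6.18 and a margin of 0.35 (adjusted p = 0.125). Tbx4 (hindlimb and lung) had 5.44 ± 0.07 and lay above the threshold on array 1 only. Tbx18, a gene of epicardium and of pericytes in many organs, had 5.49, 5.39 and 5.54, above the threshold on array 1 only (margin -0.09), with 1 of 13 probesets above background. Tbx5 was called with the mean over probesets (adjusted p = 0.0070).

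NK-like, Msx, Dlx and Barx homeobox genes were called in 3 of 7 cases (42.9%), beside 50.6% of all genes. Six2, Six4, Six5, Lhx2 and Lhx8 were called in 5 of 5. Margins of these 12 ran from -0.76 (Msx2) to 1.12 (Six2). None of them passed the stricter background, beside 16.6% of all genes (0 by limma, 0 with p below 0.05 before adjustment, 0 on all arrays). Msx1, a gene of limb and tooth mesenchyme, had 6.76, 6.47 and 6.62 (margin 1.05, adjusted p = 0.000965), with 0 of its 4 probesets above background. Its paralogue Msx2, known in skull and osteoblasts, had 4.74, 4.71 and 4.99, below the threshold on all arrays. Dlx3, a gene of teeth, hair and bone, had 6.09 ± 0.28 (SD, n = 3) and a margin of 0.53 (adjusted p = 0.0344) that lost its call without array 1 (adjusted p = 0.140) or array 3 (adjusted p = 0.128). Dlx2 (6.03 ± 0.26, adjusted p = 0.0563) lay above the threshold on each array and missed the test. Its neighbour Dlx1 (5.04 ± 0.15) lay below the threshold on all arrays. Both act in the jaw and in forebrain interneurons. Nkx3-2, a cartilage gene, had 6.26, 6.29 and 6.01 (adjusted p = 0.0126) and lost the call without array 1 (adjusted p = 0.0508). Barx1, a gene of stomach mesenchyme and molars, had 5.94, 5.78 and 5.41, above the threshold on arrays 1 and 2 (margin 0.14, adjusted p = 0.429).

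Six2 and Six5 varied little between arrays. Six2, which maintains nephron progenitors, had 6.72, 6.70 and 6.64 (margin 1.12, adjusted p = 0.00049), and Six5 had 6.33, 6.24 and 6.28 (margin 0.72, adjusted p = 0.00558). Six4, a muscle regulator, had 6.38 ± 0.25 (SD, n = 3, adjusted p = 0.00345), and its 12 probesets ran from 1.85 to 12.43 in mean level. The median of such a gene rests on a wide spread within it. Lhx2, a gene of limb bud, forebrain and hair follicle, had 6.43, 6.68 and 6.44 (adjusted p = 0.0011). Lhx8, needed for teeth, palate and cholinergic neurons, had 6.01, 6.16 and 5.95 (margin 0.48, adjusted p = 0.0318). Its call was lost without any single array, with adjusted p = 0.0799, 0.125 and 0.0647 without arrays 1, 2 and 3.

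The odd-skipped zinc finger genes were called in 0 of 2 cases by limma, beside 50.6% of all genes. Without adjustment 0 had a p below 0.05, and 0 exceeded the threshold on each array. Osr1, a gene of kidney and limb mesenchyme, had 6.11, 5.50 and 5.12 and exceeded the threshold on array 1 only. Osr2, a palate gene, had 5.53 ± 0.13 (SD, n = 3), although 3 of its 13 probesets lay above background.

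The Gli genes, the transcription factors at the end of the Hedgehog pathway, were called in 3 of 3 cases (50.6% of all genes). Gli3, which in the absence of ligand is processed to a repressor, had 7.37, 7.60 and 7.33, a margin of 1.87 (SE 0.18, adjusted p = 2.25e-05) and 8 of 22 probesets above background. Every array lay above the stricter threshold, but the test against it missed (margin 0.41, adjusted p = 0.25). With the mean over probesets it passed (adjusted p = 0.00729). Gli1, a direct target of the pathway and a marker of perivascular progenitors, had 6.48, 6.47 and 6.67 (margin 0.97, adjusted p = 0.00101), with 3 of 24 probesets above background. Gli2, the main activator, had 6.00, 6.49 and 6.15 (adjusted p = 0.00895) and lost its call without array 2 (adjusted p = 0.0715).

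Of 20 other measured genes of the Hedgehog pathway 14 (70%) were called, beside 50.6% of all genes. The stricter background was passed by 2 (10%), beside 16.6% of all genes. Ptch1, the receptor that is itself induced by the pathway, had 9.56, 7.77 and 8.71, with 16 of 30 probesets above background. It was lowest on array 2, a difference of 1.79 from array 1. The signal transducer Smo had 7.66 ± 0.15 (SD, n = 3) and the inhibitor Sufu 7.25 ± 0.19. The ligand gene Dhh had the smallest margin of the list, 0.01, with 5.58 ± 0.32. When genes with at least 1 probeset set the background, 7 of the 20 were called, beside 33.2% of all genes.

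The Zfhx genes encode very large proteins that combine many zinc fingers with several homeodomains, and both were called (50.6% of all genes). Zfhx4 had 8.77, 8.64 and 8.79, with a spread of 0.08 (SD, n = 3), a margin of 3.17 (SE 0.19, adjusted p = 1.48e-06) and 38 of 53 probesets above background. It stood above the stricter threshold on each array (adjusted p = 4.46e-06). Zfhx3, a tumour suppressor and neuronal gene, had 6.77, 7.00 and 6.92 (margin 1.33, adjusted p = 0.000142), with 10 of 36 probesets above background.

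Signal that ran along most of a gene was found in a minority of the 52 and in a minority of all genes. The share of a gene's probesets above the 95th percentile of 2111 chemosensory probesets on all arrays had a median of 17.4%, beside 15.8% over all genes. At least 50% of probesets lay above in 6 of the 52 genes (11.5%), beside 15.6% of all genes. These were Snai2, Meis3, Prrx1, Zeb2, Zfhx4 and Pbx2. In 10 of the 52 no probeset lay above (19.2%), beside 24.1% of all genes, and 2 of these 10, Pitx1 and Msx1, were nevertheless called on their median. Of the 36 genes called above the chemosensory background, 30 therefore had under 50% of their probesets above the level of single background probesets. Probesets of a gene share their RNA and are not replicates.

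**Figure D3:**
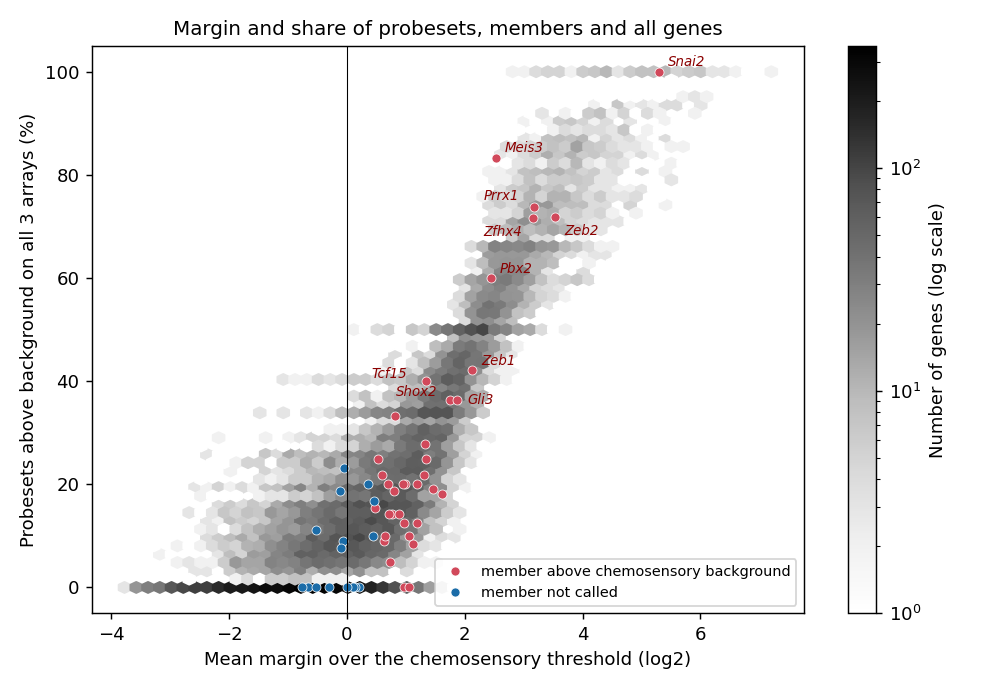
Share of a gene's probesets above background on all arrays (y axis, percent) against its margin over the chemosensory threshold (x axis, log2), with the 52 genes as points over all 18865 genes in grey on a log colour scale. The 6 genes with at least 50% of probesets above have margins from 2.44 to 5.29, and most of the others gather below 40% with margins under 2.

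Spread between arrays was smaller than usual for most of the 52 genes and wide for a few. The median SD was 0.20, beside 0.27 over all genes. A range above 1 on the log2 scale was found in 8 of the 52 (15.4%), beside 15.8% of all genes: Irx3, Shox2, Twist2, Tcf15, Meox2, Tbx15, Pbx2 and Meis3. For the next counts, each gene's deviations from its mean were centred on each array's median over all genes. Small differences in the uncentred values can therefore have another order. The highest deviation fell on array 2 in 23 of the 52 (44.2%, beside 34.3% of all genes). It fell on array 1 in 15 (33.5% of all genes) and on array 3 in 14 (32.3% of all genes). The lowest deviation fell on arrays 1, 2 and 3 in 19, 15 and 18 of the 52, beside 34.2%, 34% and 31.7% of all genes. With the mean over probesets these last counts were 13, 12 and 27.

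Of the 8 genes with a wide range, Shox2, Twist2, Tcf15, Meox2 and Meis3 were highest on array 2, Irx3 and Pbx2 on array 1 and Tbx15 on array 3. The 16 endothelial markers moved the other way on array 2: the sum of their log2 levels was 119.6, 96.1 and 125.2 on arrays 1, 2 and 3, none was at 0, and Cdh5 had 9.14, 6.05 and 9.58. Stromal markers stayed level, with a median deviation of 0.00, -0.01 and -0.05. Neutrophil markers had a median deviation of -0.33, 0.00 and 0.40, and pan-leukocyte markers of -0.20, -0.24 and 0.25. The part of these cell types in the spread of the 8 genes was not tested.

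**Figure D4:**
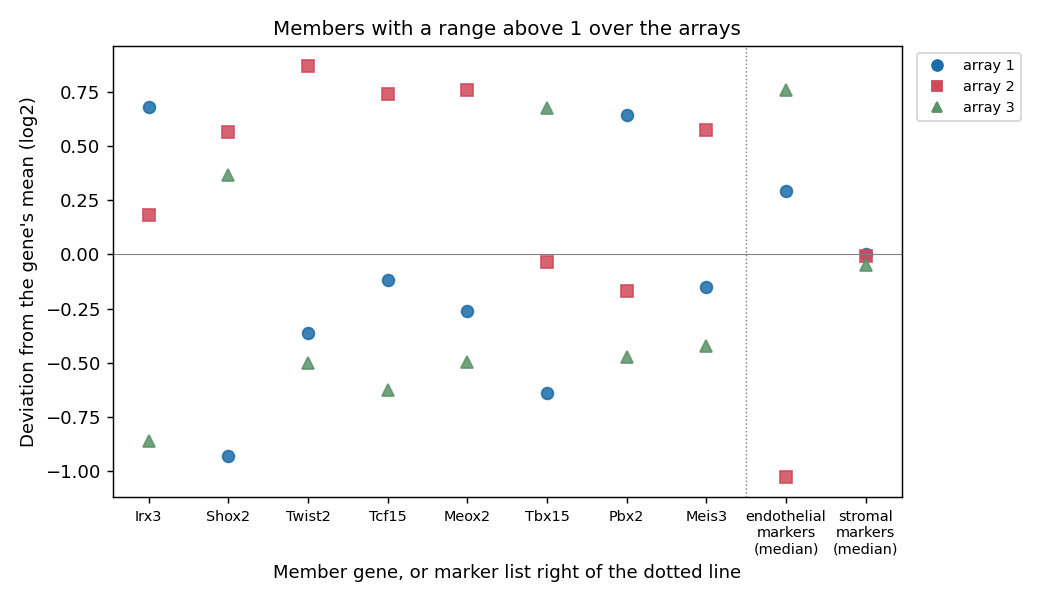
Deviation from the gene's mean (log2, centred on each array's median) on arrays 1, 2 and 3 for the 8 genes with a range above 1, with the median deviation of the endothelial and stromal markers. Shox2, Twist2, Tcf15, Meox2 and Meis3 are highest on array 2, where the endothelial median is at -1.03 and the stromal median is at -0.01.

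Of 34 measured relatives of the 52 genes in the same families, 15 (44.1%) were called, beside 50.6% of all genes. The stricter background was passed by 2 (5.88%), beside 16.6% of all genes. The median margin of the relatives was 0.25, beside 0.50 over all genes. The largest margins belonged to Dlx5, an osteoblast homeobox gene, with 8.99, 8.87 and 8.22 and 8 of 11 probesets above background, to the Max-binding T-box gene Mga (7.86 ± 0.23, SD, n = 3) and to the Gli-like gene Glis2 (7.54 ± 0.43). Tbx22, a palate gene, had the smallest (3.60 ± 0.21). Of the other Dlx relatives, named after their values were seen, Dlx6 had 6.98, 7.41 and 7.01, above the stricter threshold on arrays 2 and 3 (margin 0.10), and Dlx4 had 6.68 ± 0.11. Within the family only Dlx5 was called above the stricter background, and Dlx1, Dlx2 and Dlx3 lay below that threshold on every array. The difference between the 52 genes and their relatives was not tested.

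Epithelial genes, several of which EMT factors are known to repress, were mostly not called above the chemosensory background. Most genes of the mesenchymal state were called. A missing call does not show absence: the median margin was 0.07 for epithelial genes, beside -2.18 for the chemosensory genes themselves. Of 19 measured epithelial genes 4 (21.1%) were called, beside 50.6% of all genes. None passed the stricter background, beside 16.6% of all genes (0 by limma, 0 at p below 0.05 before adjustment, 0 on all arrays). The called ones were the plakophilin gene Pkp3 (6.69 ± 0.10, SD, n = 3), the splicing regulator Esrp2 (6.27 ± 0.09), the claudin gene Cldn3 (6.17 ± 0.05) and the keratin gene Krt8 (6.02 ± 0.08). E-cadherin (Cdh1) had 5.45, 5.60 and 5.86, a level at the threshold (margin 0.07, adjusted p = 0.575) with 0 of 18 probesets above background, and the tight junction gene Ocln had the smallest margin (3.60 ± 0.11). The count of 4 became 10 with the 90th percentile as threshold, 0 with the 99th and 1 when genes with at least 1 probeset were used. In these settings 63.5%, 20.1% and 33.2% of all genes were called. Of 16 mesenchymal state genes 14 (87.5%) were called and 9 (56.25%) passed the stricter background, beside 50.6% and 16.6% of all genes. The matrix gene Sparc had 12.30 ± 0.10, the cadherin gene Cdh11 11.63 ± 0.17 and the fibrillin gene Fbn1 10.79 ± 0.04, and S100a4 had the smallest margin (5.95 ± 0.55, adjusted p = 0.152). Cdh1, singled out here after its values were seen, is the best known target of Snai1, Snai2 and the Zeb proteins.

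**Figure D5:**
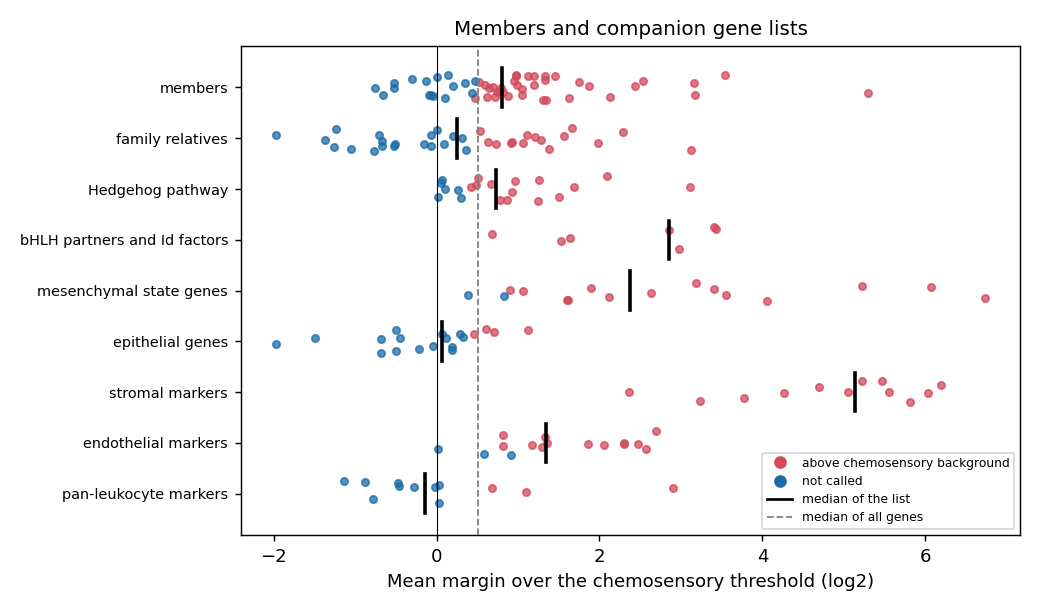
Margin over the chemosensory threshold (log2) of each measured gene of the 52 and of 8 other gene lists, with a bar at each list's median and a dashed line at the median of all 18865 genes (0.50). The median is 0.81 for the 52 genes, 0.25 for their relatives, 0.07 for epithelial genes and 2.38 for mesenchymal state genes.

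The E-box read by Snail and Zeb proteins was searched for in the promoters, because Snai2, Zeb1 and Zeb2 were called above both backgrounds. The motif was CACCTG or its reverse complement CAGGTG, on both strands, in the 250 bases before each annotated start in RefSeq (assembly GRCm38.p6). It occurred in 19.4% of the 27025 genes of that promoter table. Of 20 listed epithelial genes 12 had a promoter in the table. Cdh1 was not among them, so its promoter was not searched. The motif was held by 9 of the 12 (75%): Cldn4, Cldn7, Crb3, Epcam, Krt18, Krt7, Krt8, Ocln and Tjp3. Of the 52 genes 33 had a promoter in the table, and 3 of these (9.09%) held the motif: Snai1, Pbx2 and Msx1. It occurred in 0 of 10 mesenchymal state genes, 0 of 5 partner and Id genes, 4 of 25 relatives (16%) and 3 of 17 Hedgehog genes (17.6%). A match is a run of letters, not a measured binding site, and no difference between lists was tested.

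Promoters of the epithelial genes Epcam, Crb3 and Krt8 and of Snai1 itself are shown as examples of those that hold the motif. The examples were chosen after their values were seen. Of these genes only Krt8 was called above the chemosensory background, and none above the stricter one. Among the other epithelial genes with the motif, Cldn4 was not measured, and Cldn7, Krt18, Krt7, Ocln and Tjp3 were not called. Sequences run 5′ to 3′ in the direction of the gene and end just before its annotated start (for Crb3, the first of 2), with each E-box in capitals. Epcam lies at chr17:87635729-87635978 (plus strand), Crb3 at chr17:57061951-57062200 (plus strand), Krt8 at chr15:102004343-102004592 (minus strand) and Snai1 at chr2:167537945-167538194 (plus strand).
Epcam: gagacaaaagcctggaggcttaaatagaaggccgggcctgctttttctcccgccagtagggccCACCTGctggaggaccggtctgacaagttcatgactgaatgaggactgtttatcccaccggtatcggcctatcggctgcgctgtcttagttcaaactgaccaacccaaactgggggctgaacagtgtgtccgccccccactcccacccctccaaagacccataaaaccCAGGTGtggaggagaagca
Crb3: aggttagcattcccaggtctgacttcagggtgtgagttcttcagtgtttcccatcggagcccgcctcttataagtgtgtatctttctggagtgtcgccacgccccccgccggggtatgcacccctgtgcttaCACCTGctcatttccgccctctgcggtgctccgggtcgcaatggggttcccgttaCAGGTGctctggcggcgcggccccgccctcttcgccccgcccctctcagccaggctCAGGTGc
Krt8: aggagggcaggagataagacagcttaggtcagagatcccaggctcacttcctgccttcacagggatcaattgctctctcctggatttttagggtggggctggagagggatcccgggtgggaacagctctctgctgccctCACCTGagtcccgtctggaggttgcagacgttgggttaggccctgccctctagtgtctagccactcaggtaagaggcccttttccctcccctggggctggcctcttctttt
Snai1: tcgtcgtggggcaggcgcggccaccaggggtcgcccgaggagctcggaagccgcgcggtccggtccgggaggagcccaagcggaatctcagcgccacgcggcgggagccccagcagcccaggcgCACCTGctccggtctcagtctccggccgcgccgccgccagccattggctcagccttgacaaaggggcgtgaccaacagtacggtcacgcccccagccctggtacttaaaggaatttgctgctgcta

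The epithelial adhesion gene Epcam has E-boxes that begin 187 and 19 bases before the start, and its levels were 5.15, 5.17 and 4.88, below the threshold on each array. The polarity gene Crb3 has 3 of them, at 118, 63 and 7 bases before the first of its 2 annotated starts and at 148, 93 and 37 bases before the other, and levels of 5.55, 5.60 and 5.88, at the threshold (margin 0.11, adjusted p = 0.46). Krt8 has 1 at 111 bases and passed the chemosensory test (6.02 ± 0.08, SD, n = 3, adjusted p = 0.0415), so a gene with the motif was also called. Snai1 has 1 E-box at 126 bases and was not called (margin 0.10). The other holders of the motif among the 52 genes were called: Pbx2 above both backgrounds and Msx1 above the chemosensory one. The motif stood in 2 of 23 called genes with a promoter (8.7%) and in 1 of 10 uncalled ones (10%). Whether Snai2 or Zeb proteins occupy these sequences in the sorted cells was not measured.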

How the data were processed

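Per the labels' protocols, RNA of sorted cells was amplified from small amounts and turned into sense transcripts, and the fragmented cDNA carried a biotin label. The deposited values are log2 levels of probesets that the authors computed by RMA in Affymetrix Expression Console 1.1, per the submitters' processing notes. The settings of RMA are unknown here, and so is the annotation's build. Of 1256831 probesets, 318760 had exactly 1 gene symbol in the platform annotation, 6684 had several and 931387 are unnamed here. Symbols were updated through RefSeq synonyms (GRCm38.p6; 4227 changed, no member). A gene's level was the median of its probesets with 1 symbol, for genes with at least 4 probesets (18865 genes).

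An intercept-only model of level minus the array's threshold was fitted in limma 3.58.1 (R 4.3.3), and the script was tested on simulated data. Tables and figures used Python 3.11.15. The number of arrays limits the precision. Probe sequences, and so cross-hybridisation and overlapping transcripts, were not examined. The 52 members, the other lists and the tests were chosen with earlier results of these data known. Named genes were all members and, of other lists, up to 3 called genes with the largest margin and the 1 with the smallest. Further genes named (Nes, Cdh1, Epcam, Crb3, Krt8, Cdh5, Dlx4, Dlx6 and holders of the E-box) were chosen after their values were seen. Alternatives were other thresholds (for the chemosensory background only), probeset summaries, symbol rules, fits and each array left out. Protein sequences were not used here.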

Additional observations from a re-analysis of the deposited data

How the results depend on the processing

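No paired analysis was possible because the arrays form 1 group. Beside each count of the 52, the share of all genes called in the same setting is given in brackets. The count of 36 genes above the chemosensory background was 44 with the 90th percentile as threshold (63.5%). It was 38 with the mean over probesets (54.2%) and 38 with symbols not updated (52.8%). A trended robust fit gave 37 (51.1%), quantile normalization 36 (50.9%) and probesets of several symbols 35 (48.5%). Leaving out probesets at 0 gave 36 (50.6%), where no named probeset is at 0. The count fell to 23 (33.2%) when genes with at least 1 probeset were used, which raised the threshold. There Lhx8 had a margin of -0.0089. With the 99th percentile, a higher threshold by construction, it fell to 8 (Prrx1, Meis3, Pbx2, Gli3, Zeb1, Zeb2, Snai2 and Zfhx4). These are 15.4% of the 52, beside 3797 of all genes (20.1%). With this threshold the share of the 52 thus lay below that of all genes, and the difference was not tested. Margins then were below 0 for Prrx2 (-0.18), Alx4 (-0.43), Pitx1 (-0.25), Twist1 (-0.24), Twist2 (-0.030), Meox1 (-0.034), Meis2 (-0.46), Irx5 (-0.35), Tbx1 (-0.63), Tbx2 (-0.53), Tbx3 (-0.49), Msx1 (-0.18), Dlx3 (-0.70), Nkx3-2 (-0.60), Six2 (-0.11), Six4 (-0.41), Six5 (-0.51), Lhx2 (-0.27), Lhx8 (-0.75), Gli1 (-0.25) and Gli2 (-0.58). Leaving out each array gave 32 to 34 of the 52 genes and 8559 to 9158 of all genes, and 30 of the 36 kept their call each time. Against the other-tissue background it gave 6 to 7 of the 52 and 2400 to 3030 of all genes. There the mean over probesets gave 9 of the 52 (Tcf15 and Gli3 added) and 4308 of all genes. Symbols not updated gave 6 of the 52, and the remaining settings run with all arrays gave 7. Other percentiles were not tried for the other-tissue background. Without array 2 limma used 1 common variance for all genes.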
